A study of Homo sapiens with 12 samples.

Results

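The nuclear genes for the subunits of respiratory complexes II, III, IV and V, with cytochrome c, were followed across THP-1 macrophages given a miR-122-5p mimic or a control mimic. The members were SDHA, SDHB, SDHC, SDHD, CYC1, CYCS and every protein-coding gene of GENCODE 29 whose symbol began with UQCR, COX4I, COX5, COX6, COX7, COX8 or ATP5. This gave 53 of the 58735 gene rows in the count table, and 45 of the 53 had enough counts to be tested among 15471 genes tested in all. The rule used symbols and no measured value, but it was chosen with earlier results of these data known.

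THP-1 is a human monocytic leukaemia line that can be differentiated into macrophage-like cells, and all cells studied were THP-1 macrophages from this single line. In the miR-122-5p group, 6 libraries came from cells transfected with the miR-122-5p mimic at 30 nM, and in the control group 6 libraries came from cells transfected with a control miRNA mimic at the same concentration. Transfection with RNAimax lasted 24 h in both groups, after which the cells rested and then received lipopolysaccharide (LPS), a bacterial cell wall component, for 4 h. No group lacked LPS or a mimic. Whether the 6 libraries of a group stem from separate cultures is not stated in the labels; p-values therefore reflect the spread among libraries, which could be purely technical. The study asked how exosomal miR-122-5p acts on immune regulation.

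Oxidative phosphorylation takes place in the inner mitochondrial membrane. Complex II, succinate dehydrogenase, passes electrons from succinate to ubiquinone and is also a step of the tricarboxylic acid cycle. Complex III passes electrons from ubiquinol to cytochrome c, complex IV passes them from cytochrome c to oxygen, and complex V, the ATP synthase, uses the proton gradient that complexes I, III and IV build. Complexes III to V mix nuclear subunits with a few encoded in mitochondrial DNA, while complex II is wholly nuclear. In macrophages stimulated with LPS, energy metabolism is known to shift towards glycolysis, and succinate oxidation at complex II is linked to inflammatory signalling.

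MicroRNAs lower the level or translation of mRNAs that pair with their seed, bases 2 to 8 from the 5′ end, usually in the 3′ untranslated region. The mature sequence is shown with the seed in capitals, because the site search below rests on it; RefSeq places it at chr18:58451088-58451109 on the plus strand of GRCh38.p14.
hsa-miR-122-5p: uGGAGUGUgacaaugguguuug
Of the 45 members tested, 4 (8.89%) had an 8mer or 7mer match to this seed in their longest annotated 3′ UTR, against 3316 of 12892 tested genes with such a UTR (25.7%). The members' UTRs were shorter, with a median of 449 bases against 1592. No member had an 8mer, and 1 had a 7mer to bases 2 to 8. That site, in SDHC, is shown with flanking bases and the match in capitals.
SDHC: aaaatttttACACTCCgccctttta
It lay 5171 bases into an annotated UTR of 12907 bases. Of the 4 genes with a match, ATP5PB rose, and SDHC, ATP5F1A and ATP5S passed the test in neither direction. Only 1 of all 45 members was called lower (2.22%), beside 26.2% of all tested genes. With so few, these 4 genes cannot show whether a match goes with a fall, and this was not tested.

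Libraries held 29473750 to 35684464 gene counts in the miR-122-5p group and 31019890 to 39468157 in the control group. Mitochondrially encoded genes took 2.92% ± 0.237 of the counts in miR-122-5p libraries and 3.04% ± 0.379 in control libraries (SD, n = 6 each, two-sided exact permutation p = 0.522). Each library's log2 levels sloped with transcript GC content by 0.0336 to 0.229 per 10 percentage points in miR-122-5p libraries and by -0.318 to 0.0118 in control libraries, with no overlap (exact permutation test, two-sided, p = 0.00216, the lowest value possible with 6 libraries in each group; adjusted p = 0.00432 over 4 library measures). The slope with transcript length was also apart, at -0.0897 to -0.00134 per doubling with miR-122-5p and 0.0114 to 0.0818 with the control mimic (same exact p). Members were therefore also fitted after removing each library's smooth GC and length trends, called GC- and length-corrected below, and with the GC slope of the library entered as a covariate. The slope and the group move together, so this last fit cannot tell them apart. Control library 1 stood apart from the other 11 on the third principal component and control library 6 on the second. The summed level of 10 macrophage markers was 2440 to 2966 CPM (the count scaled by library total and TMM factor) with miR-122-5p and 2413 to 2777 CPM with the control mimic, although CD68 and MRC1 reached only 18 and 16 counts in any library. Of the 8 macrophage markers tested, TYROBP and ITGAM were higher with miR-122-5p (0.30 and 0.19), and CD14, CSF1R, FCER1G and CD163 were lower with no overlap of the groups (-0.39, -0.36, -0.38 and -0.81). T cell and epithelial markers reached at most 8 counts, and markers of B cells, fibroblasts and erythroid cells at most 149. CD79A, HBA2 and APOA1, 1 marker each of B cells, erythroid cells and hepatocytes, were higher with miR-122-5p. The summed levels of the lists of these 3 cell types were 3.36 to 4.24, 0.471 to 2.30 and 88.4 to 114 CPM with miR-122-5p, and 2.01 to 3.53, 0.145 to 0.601 and 79.7 to 106 CPM with the control mimic; the part of any marker list in the members' values was not tested.

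The respiratory subunit genes were mostly higher in cells given miR-122-5p. Of the 45 tested, 31 rose, 1 (ATP5F1C) fell and 13 passed the test in neither direction (edgeR's quasi-likelihood test, Benjamini-Hochberg adjusted p under 0.05 over all 15471 genes). The share called was 71.1%, against 50.5% of all tested genes, and it was one-sided: 68.9% of members were called higher against 24.3% of all genes, and 2.22% lower against 26.2%. The median log2 fold change was 0.38 over the members and 0.01 over all tested genes, with a range of -0.26 to 1.43 over the members, and 41 of the 45 were above 0. In 23 members every miR-122-5p library lay above every control library, and in 0 below; over all tested genes, 13.4% lay wholly above and 16.1% wholly below. Bulk RNA cannot tell a change in the number of cells of a type from a change in RNA per cell. Library 1 of the miR-122-5p group had the highest value of its group in 36 of the 45 members. Without it 30 members rose and their median was 0.32.

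**Figure D1:**
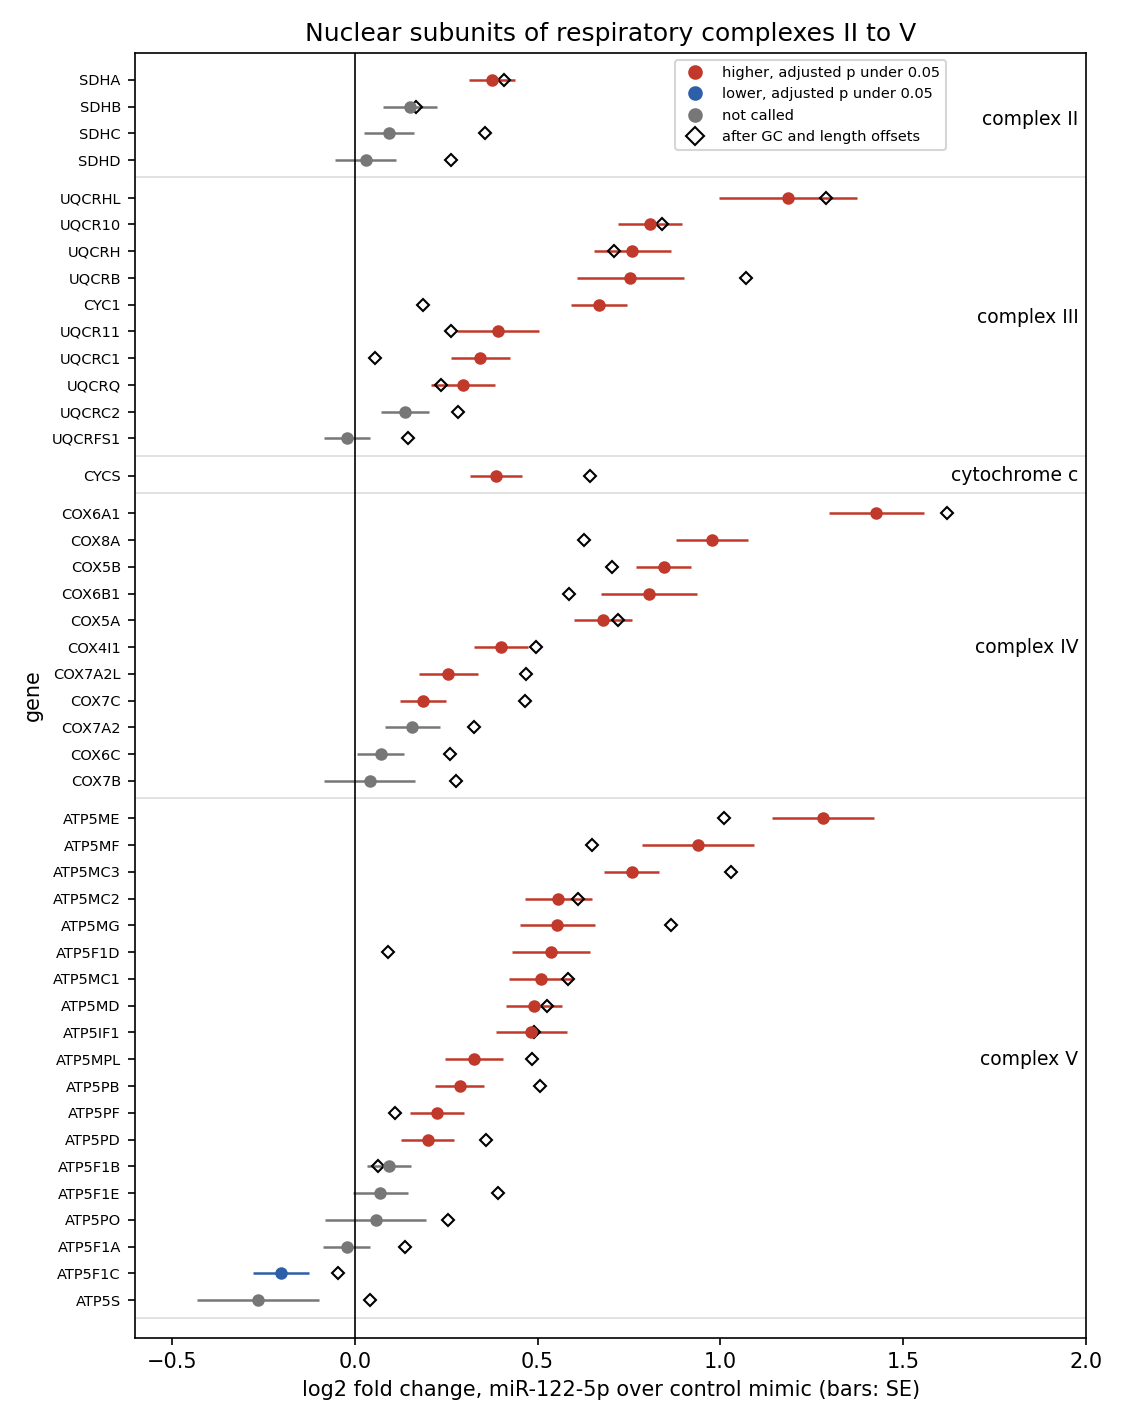
Log2 fold change (miR-122-5p over control mimic, x axis) of the 45 tested subunit genes, listed by complex down the y axis; filled points with bars are the fitted value and its SE, red for higher, blue for lower and grey for not called, and open diamonds the value after removing each library's GC and length trends. Of the 45, 31 are red and 1 is blue (ATP5F1C), and COX6A1 lies farthest to the right at 1.43.

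Summed over all 53 members, the level was 6730 to 8007 CPM with miR-122-5p (mean 7170 ± 474, SD, n = 6) and 5431 to 5748 CPM with the control mimic (5595 ± 135). The 6 sums of the miR-122-5p group lay above the 6 of the control group for complexes II, III, IV and V, though only narrowly in complex II. Complex III reached 1574, 1619 and 1898 CPM (lowest, median and highest library) with miR-122-5p against 1142, 1200 and 1267 CPM with the control mimic, a log2 ratio of means of 0.49. For complex IV the sums were 2142, 2259 and 2654 CPM with miR-122-5p against 1620, 1703 and 1761 CPM with the control mimic, a ratio of 0.46. Complex V, with the largest sum, had a log2 ratio of 0.22 (2535, 2656 and 2982 CPM with miR-122-5p, against 2227, 2284 and 2467 CPM with the control mimic). Complex II gave 287, 302 and 322 CPM with miR-122-5p and 251, 266 and 284 CPM with the control mimic, a ratio of 0.19. Of its 4 subunits only SDHA was called. Differences between the complexes were not tested.

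The promoters were searched for words of factors known to drive nuclear respiratory genes. RefSeq promoter sequences (250 bases before to 50 after the start, GRCh38.p14) were at hand for 37 of the 53 members. The core of the NRF1 motif (GCGCATGC, or GCATGCGC on the other strand) occurred in 7 (18.9%) of these and in 3.05% of 35116 promoters. An ETS motif of the kind that GABP binds (CCGGAAGT or ACTTCCGG) occurred in 9 (24.3%) against 4.14%, and a YY1 motif (AAGATGGC or GCCATCTT) in 5 (13.5%) against 2.89%. Among the promoters of 10640 tested genes the shares were 5.30%, 8.50% and 5.25%. The palindrome GCGCATGCGC counts as a match on both strands, which overlap. At least 1 of the 3 words was in 17 members (45.9%), against 9.36% of all promoters and 17.4% of those of tested genes. Of the 17 members with a word, 12 rose and 1 fell, with a median log2 fold change of 0.30, and of the 16 tested members with a promoter and no word, 11 rose, with a median of 0.39. The difference was not tested. The promoters of SDHB, COX5B and COX6A1 are shown because each holds at least 2 matches and the genes include 1 that was not called and 2 that rose, with words in capitals. They lie at chr1:17053983-17054282 (minus strand), chr2:97645812-97646111 (plus) and chr12:120437863-120438162 (plus).
SDHB: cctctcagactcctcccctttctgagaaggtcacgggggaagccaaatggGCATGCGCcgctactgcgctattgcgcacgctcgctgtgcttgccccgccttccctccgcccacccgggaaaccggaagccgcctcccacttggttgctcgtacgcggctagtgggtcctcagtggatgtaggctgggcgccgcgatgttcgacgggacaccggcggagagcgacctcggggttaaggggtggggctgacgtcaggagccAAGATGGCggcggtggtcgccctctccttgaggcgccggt
COX5B: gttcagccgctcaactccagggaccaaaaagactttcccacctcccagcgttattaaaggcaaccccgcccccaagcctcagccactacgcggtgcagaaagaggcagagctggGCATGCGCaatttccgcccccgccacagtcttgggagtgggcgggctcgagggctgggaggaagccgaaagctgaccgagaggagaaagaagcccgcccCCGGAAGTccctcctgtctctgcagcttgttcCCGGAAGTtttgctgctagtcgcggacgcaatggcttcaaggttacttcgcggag
COX6A1: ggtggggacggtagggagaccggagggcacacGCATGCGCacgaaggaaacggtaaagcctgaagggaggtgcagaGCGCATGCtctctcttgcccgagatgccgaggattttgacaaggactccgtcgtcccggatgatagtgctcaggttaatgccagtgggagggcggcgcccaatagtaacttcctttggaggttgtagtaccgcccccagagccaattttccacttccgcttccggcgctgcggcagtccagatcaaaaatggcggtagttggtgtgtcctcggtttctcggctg
SDHB holds the NRF1 core and a YY1 word and was not called, while COX5B (1 NRF1 core and 2 ETS words) and COX6A1 (2 NRF1 cores) had the smallest p of all members. SDHD, ATP5F1C and ATP5PF also hold at least 2 matches and are not shown. ATP5F1C, with the NRF1 palindrome, was called lower, SDHD was not called and ATP5PF rose. Of the 7 members with the NRF1 core, 4 rose, 1 fell and 2 were not called (median 0.39). Whether a word goes with a rise was not tested.

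Of the 4 subunits of complex II, 1 rose (25%), near the 24.3% of all tested genes called higher. SDHA, the flavoprotein that oxidises succinate (chromosome 5, 218241 to 256700, hg38), had 98.9, 106 and 115 CPM (lowest, median, highest library) with miR-122-5p and 77.2, 81.5 and 86.7 CPM with the control mimic. The groups did not overlap, and the log2 fold change was 0.38 ± 0.06 (SE, adjusted p = 3.82e-05). Counts of SDHA pseudogenes, mostly SDHAP1, were 9.88% of those of the gene and its copies together in miR-122-5p libraries and 11.9% in control libraries. SDHB, the iron-sulphur subunit that carries the electrons on (chromosome 1, 17018722 to 17054170), had 49.9, 55.4 and 60.3 CPM with miR-122-5p against 44.2, 49.2 and 55.0 CPM with the control mimic, with overlapping groups (0.15 ± 0.07, adjusted p = 0.0977). SDHC and SDHD anchor the complex in the membrane and bind ubiquinone. SDHC had 102, 108 and 109.7 CPM with miR-122-5p and 91.6, 97.9 and 116 CPM with the control mimic (0.09 ± 0.07, adjusted p = 0.267). SDHD had 32.5, 36.8 and 40.4 CPM with miR-122-5p and 30.5, 37.0 and 41.1 CPM with the control mimic (0.03 ± 0.08, adjusted p = 0.789). Neither anchor gene separated the groups as counted; without control library 1 SDHC was called higher (0.15, adjusted p = 0.0493). Both have low GC content (42.6% and 41.0%), and after GC and length correction SDHC was at 0.35 (adjusted p = 6.18e-05), SDHD at 0.26 (0.00173) and SDHB at 0.17 (0.0334), all then called higher.

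The assembly factors of complex II moved both ways. SDHAF4, which helps build the flavoprotein, was higher (0.58 ± 0.10, adjusted p = 4.23e-05), at 10.1, 12.3 and 12.9 CPM with miR-122-5p against 7.002, 8.07 and 8.82 CPM with the control mimic. SDHAF2, which promotes the attachment of FAD to SDHA, was lower (-0.56 ± 0.10, adjusted p = 1.32e-04), at 7.73, 8.55 and 9.41 CPM with miR-122-5p against 10.003, 13.1 and 15.045 CPM with the control mimic. In both genes the groups did not overlap, although 30.5% of the SDHAF2 exons overlap other genes. SDHAF1, needed for the iron-sulphur subunit, was called higher (0.70 ± 0.15, adjusted p = 5.51e-04), but its transcript has 63.4% GC and the GC- and length-corrected value of 0.24 was not called (adjusted p = 0.125). With the GC slope as covariate SDHAF4 was not called either (0.29, adjusted p = 0.253). Of the 4 factors listed, 3 rose (75%) and 1 fell (25%), beside 24.3% and 26.2% of all tested genes.

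In complex III, 8 of the 10 members tested rose (80%, beside 24.3% of all tested genes), with a median log2 fold change of 0.53. None was lower by edgeR, at an unadjusted p under 0.05, by limma-voom or by DESeq2, and the same held in complexes II and IV. CYC1, cytochrome c1, is the haem subunit that hands electrons to cytochrome c (chromosome 8, 144095027 to 144097525). It had 313, 348 and 415 CPM with miR-122-5p and 203, 223 and 255 CPM with the control mimic. The groups were apart, at 0.67 ± 0.08 (adjusted p = 2.96e-07), and GC and length correction of this transcript, which has 64.5% GC, brought the value to 0.19 (adjusted p = 0.0277). UQCRFS1, the Rieske iron-sulphur protein that works beside it (chromosome 19, 29205321 to 29213541), was not called. It had 89.2, 92.5 and 98.5 CPM with miR-122-5p and 86.7, 94.2 and 102 CPM with the control mimic, so the groups lay over each other (-0.02 ± 0.06, adjusted p = 0.803). After GC and length correction UQCRFS1 was at 0.15 (adjusted p = 0.0304). Its pseudogene copies held 6.65% of the summed counts in miR-122-5p libraries and 4.16% in control libraries.

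The core proteins UQCRC1 and UQCRC2 face the matrix and are related to processing peptidases. UQCRC1 rose by 0.34 ± 0.08 (adjusted p = 0.00122), with 427 to 553 CPM with miR-122-5p against 331 to 424 CPM with the control mimic, but was at 0.05 after GC and length correction (adjusted p = 0.562). UQCRC2 showed the opposite dependence, at 0.14 ± 0.07 as counted (adjusted p = 0.094) and 0.28 after correction (adjusted p = 2.08e-04); without miR-122-5p library 3 it was called higher (0.17, adjusted p = 0.049). The 5 small subunits, which surround the core, all rose, with a median of 0.75. UQCR10 (chromosome 22, 29767369 to 29770413) had 68.5, 76.6 and 88.0 CPM with miR-122-5p and 36.9, 44.4 and 53.5 CPM with the control mimic. Its groups were apart (0.81 ± 0.09, adjusted p = 1.37e-07), and the value was 0.43 with the GC slope as covariate. UQCRH, the acidic hinge protein near cytochrome c1 (chromosome 1, 46303631 to 46316776), had 204, 217 and 248 CPM with miR-122-5p against 85.4, 136 and 161 CPM with the control mimic. It too separated the groups (0.76 ± 0.11, adjusted p = 3.84e-06), and the covariate ended its call (0.47, adjusted p = 0.0782).

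UQCRB, which takes part in ubiquinone binding (chromosome 8, 96225920 to 96235634), rose by 0.75 ± 0.15 (adjusted p = 1.91e-04), at 198, 209 and 234 CPM with miR-122-5p against 59.6, 132 and 167 CPM with the control mimic. The value of 59.6 CPM belonged to control library 1, the next being 125 CPM. With the GC slope as covariate UQCRB was at 0.34 (adjusted p = 0.422), and UQCR11, which rose by 0.39 ± 0.11 (adjusted p = 0.00586), was no longer called, at 0.40 with a wider SE of 0.21 (adjusted p = 0.212). UQCRQ rose by 0.30 ± 0.09 (adjusted p = 0.0075). UQCRHL, a near-identical copy of UQCRH elsewhere on chromosome 1 (15807169 to 15809348), had 11.3, 13.4 and 14.0 CPM with miR-122-5p against 2.34, 6.06 and 8.01 CPM with the control mimic (1.19 ± 0.19, adjusted p = 2.04e-05). Reads of UQCRH and UQCRHL can be misplaced between the copies, so the value of UQCRHL is uncertain, and it was not called with the covariate (0.34, adjusted p = 0.464). Of 6 assembly genes for complex III, 4 rose (66.7%, beside 24.3% of all tested genes). None of the 6 was lower by any of the 3 tools or at an unadjusted p under 0.05. Among them UQCC2, which stabilises newly made cytochrome b, changed by 0.87 ± 0.12 (adjusted p = 3.65e-06). BCS1L, which inserts the Rieske protein, changed by 0.90 ± 0.16 (adjusted p = 5.76e-05) at a low 3.43 to 5.10 CPM with miR-122-5p against 1.76 to 2.58 CPM with the control mimic. LYRM7, the chaperone of the Rieske protein, changed by 0.52 ± 0.17 (adjusted p = 0.0159), a call that the covariate ended at a value of 0.59 with an SE of 0.34 (adjusted p = 0.258).

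CYCS, cytochrome c, shuttles electrons from complex III to complex IV and, once released into the cytosol, takes part in apoptosis (chromosome 7, 25120091 to 25125361). It had 142, 157 and 168 CPM with miR-122-5p and 111, 114 and 139 CPM with the control mimic. Every miR-122-5p library lay above every control library (0.39 ± 0.07, adjusted p = 9.23e-05). GC and length correction gave 0.64. The annotation holds 40 CYCS pseudogene rows, which took 0.141% of the summed counts in miR-122-5p libraries and 0.262% in control libraries.

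In complex IV, 8 of 11 tested members rose (72.7%, beside 24.3% of all tested genes), with a median of 0.40. COX5B, a zinc-binding subunit on the matrix side (chromosome 2, 97646040 to 97648383), had 483, 569 and 680.4 CPM with miR-122-5p and 298, 321 and 337 CPM with the control mimic. The lowest miR-122-5p library was above the highest control library by more than the whole spread of the controls, and the fold change was 0.85 ± 0.08 (adjusted p = 8.37e-09). COX6A1, the common form of a subunit that also has a muscle form (chromosome 12, 120438090 to 120440742), had 20.3, 25.5 and 31.1 CPM with miR-122-5p against 6.48, 9.98 and 11.4 CPM with the control mimic. The groups were apart, and its fold change was the largest of the 45 (1.43 ± 0.13, adjusted p = 1.01e-08). Its pseudogenes, mainly COX6A1P2, held 15.3% of the summed counts in miR-122-5p libraries and 30.6% in control libraries, and with their counts added the value was 1.14 ± 0.11 (adjusted p = 1.98e-08).

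COX8A, a small membrane subunit (chromosome 11, 63974607 to 63976543), had 77.2, 86.4 and 111 CPM with miR-122-5p and 36.1, 45.0 and 52.3 CPM with the control mimic. The groups did not overlap (0.98 ± 0.10, adjusted p = 4.08e-08), and the value was 0.63 after GC and length correction; 34.5% of its exon bases overlap AP000721.1. COX5A, another matrix-side subunit (chromosome 15, 74919791 to 74938168), had 85.3, 94.7 and 104 CPM with miR-122-5p against 49.6, 59.5 and 68.0 CPM with the control mimic. It was likewise apart (0.68 ± 0.08, adjusted p = 4.24e-07), with 0.41 under the GC slope covariate. COX4I1, the common form of the subunit at which ATP is known to regulate the enzyme (chromosome 16, 85798633 to 85807044), had 426, 439 and 529 CPM with miR-122-5p and 313, 337 and 406 CPM with the control mimic (0.40 ± 0.07, adjusted p = 1.06e-04). Its paralogue COX4I2, a form known from lung and from low oxygen, had 0 counts in all 12 libraries, as did COX6A2 and COX7B2. COX6B2, COX7A1 and COX8C, forms of testis or muscle, reached at most 19 counts in any library and were not tested.

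**Figure D2:**
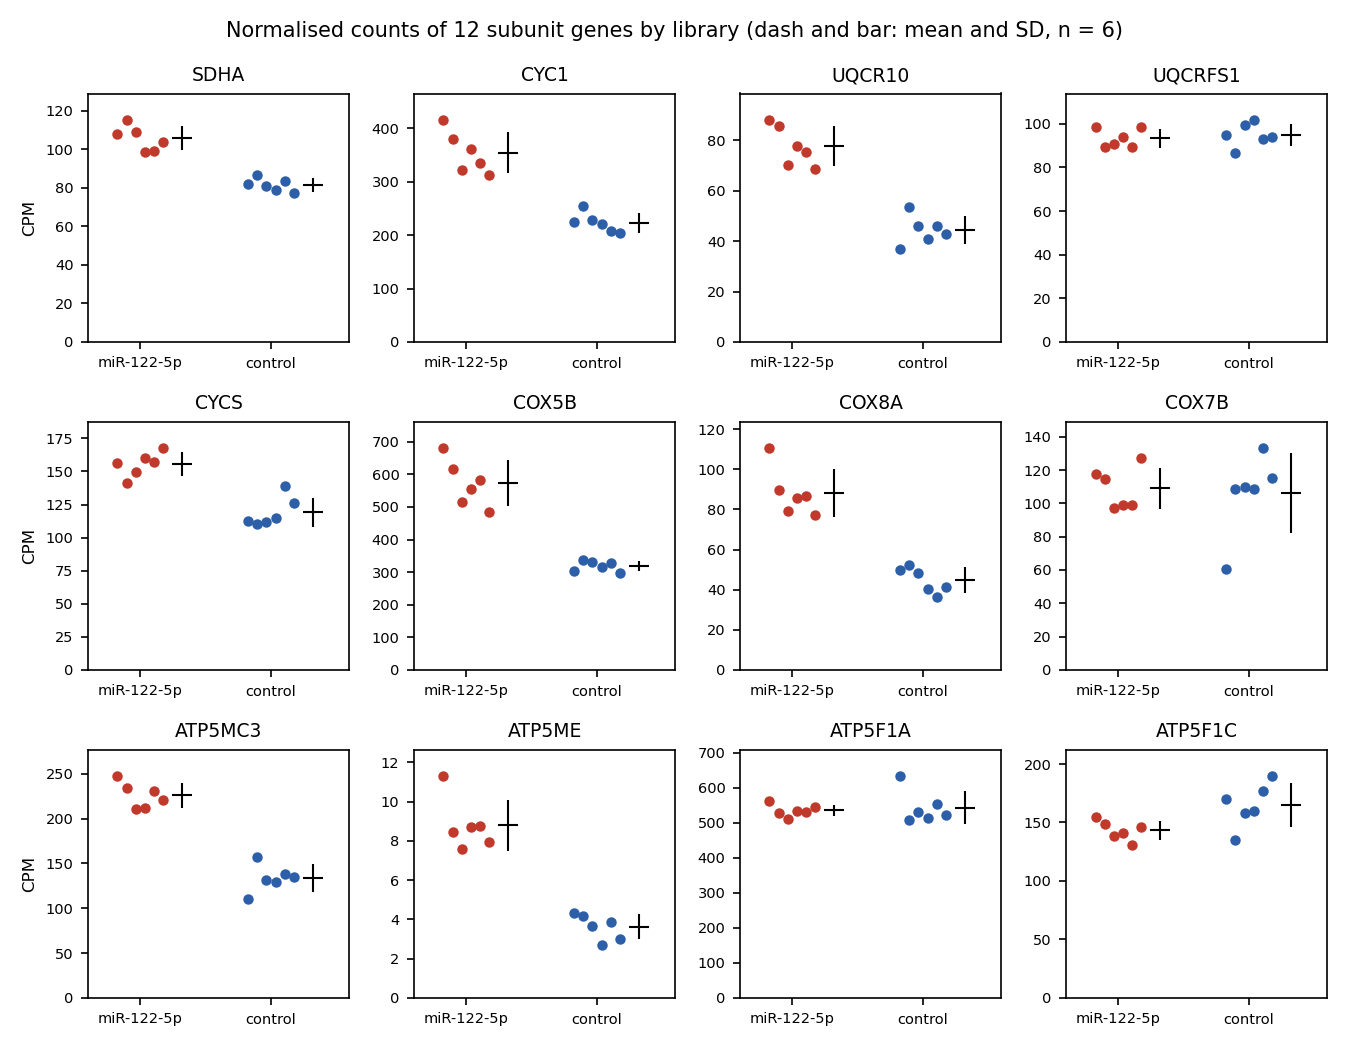
Normalised counts (CPM, y axis from 0) of 12 subunit genes in each of the 6 miR-122-5p libraries (red, left) and the 6 control libraries (blue, right), drawn in order of library number, with a dash and bar for mean and SD. SDHA, CYC1, UQCR10, CYCS, COX5B, COX8A, ATP5MC3 and ATP5ME separate the groups, UQCRFS1, ATP5F1A and ATP5F1C do not, and in COX7B control library 1 lies alone at 60.8 CPM.

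Of the other subunits of complex IV, COX6B1, which faces the intermembrane space, rose by 0.81 ± 0.13 (adjusted p = 2.50e-05), at 194 to 258 CPM with miR-122-5p against 72.3 to 162 CPM with the control mimic, but was at 0.18 with the GC slope as covariate (adjusted p = 0.544). COX7C rose by 0.19 ± 0.06 (adjusted p = 0.019). COX7A2, COX6C and COX7B were at 0.16 (adjusted p = 0.0857), 0.07 (0.38) and 0.04 (0.814). Control library 1 was the highest control for COX7A2 and the lowest for COX7B, and without it COX7A2 was called higher (0.23, adjusted p = 0.00373). COX7A2L, which is not a core subunit but ties complexes III and IV into supercomplexes (chromosome 2, 42333546 to 42425088), had 83.4, 93.4 and 97.2 CPM with miR-122-5p and 65.8, 75.3 and 94.2 CPM with the control mimic. The groups overlapped and the value was 0.26 ± 0.08 (adjusted p = 0.0105), or 0.47 after GC and length correction.

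Of 24 tested genes that build complex IV, 5 rose, 2 fell and 17 passed the test in neither direction, with a median of 0.12. The shares were 20.8% higher and 8.33% lower, beside 24.3% and 26.2% of all tested genes, and the difference from the subunits was not tested. SCO1, a copper chaperone for the complex, was lower (-0.61 ± 0.12, adjusted p = 1.77e-04), at 6.75, 7.27 and 9.36 CPM with miR-122-5p against 10.9, 11.1 and 15.4 CPM with the control mimic. COA4 was higher (0.35 ± 0.08, adjusted p = 6.24e-04), as was CMC1, which stabilises the newly made catalytic subunit (0.32 ± 0.09, adjusted p = 0.00333). The groups did not overlap in any of these 3, and the covariate ended the calls of SCO1 (-0.45, adjusted p = 0.146) and CMC1 (0.17, adjusted p = 0.501). Among 5 proteins associated with complex IV, 3 rose (60%) and 1 fell (20%) by edgeR, while limma-voom and DESeq2 called 3 higher and 0 lower. NDUFA4, now counted as a complex IV subunit, changed by 0.29 ± 0.08 (adjusted p = 0.00332), with 129, 131 and 145 CPM with miR-122-5p against 95.2, 106 and 136 CPM with the control mimic, and HIGD2A, a factor that helps assemble supercomplexes, by 0.44 ± 0.08 (adjusted p = 9.29e-05). C15orf48, which is known to be induced by inflammation and to take the place of NDUFA4, stood at 1.31 to 2.39 CPM with miR-122-5p and 1.86 to 3.25 CPM with the control mimic (-0.41 ± 0.21, adjusted p = 0.108). NDUFA4L2, a relative induced by low oxygen, changed by 0.48 ± 0.16 (adjusted p = 0.0193), which GC and length correction ended (0.00, adjusted p = 0.994). HIGD1A, another hypoxia-induced factor, changed by -0.27 ± 0.11 (adjusted p = 0.0425), turned to 0.03 after correction (adjusted p = 0.808), and lost its call without any 1 of the 6 miR-122-5p libraries or control library 1 or 6 (-0.16, adjusted p = 0.139, without control library 1); it was not called by limma-voom (adjusted p = 0.0638) or DESeq2 (0.0581).

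Complex V had 21 members, of which 19 were tested, 13 rose (68.4%) and 1 fell (5.26%), with a median of 0.33. Its catalytic head, F1, and its membrane part, Fo, gave different counts. Of the 5 F1 genes, 1 rose and 1 fell, with a median of 0.07. These shares, 20% each way, were near the 24.3% higher and 26.2% lower of all tested genes. All 3 genes of the c ring rose (median 0.56), as did all 5 of the other small membrane subunits (median 0.55). In the peripheral stalk 3 of the 4 rose (median 0.21). The difference between these groups was not tested. The F1 transcripts had a median annotated length of 1839 bases and a GC content of 45.7%, the c ring 2214 bases and 47.9%, and the membrane subunits 882 bases and 47.2%.

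ATP5F1A and ATP5F1B form the catalytic hexamer. ATP5F1A (chromosome 18, 46080248 to 46104334) had 511, 531 and 562 CPM with miR-122-5p and 507, 527 and 633 CPM with the control mimic (-0.02 ± 0.06, adjusted p = 0.799), and ATP5F1B changed by 0.09 ± 0.06 (adjusted p = 0.2). After GC and length correction ATP5F1A was at 0.14 (adjusted p = 0.048) and ATP5F1B at 0.06 (0.322). ATP5F1C, the gamma subunit that turns inside the head (chromosome 10, 7788129 to 7807815), was the only member called lower. It had 131, 144 and 155 CPM with miR-122-5p and 135, 165 and 189.6 CPM with the control mimic, and the groups overlapped (-0.20 ± 0.08, adjusted p = 0.0306). The call was lost without any 1 of miR-122-5p libraries 3, 4 and 5 and control libraries 5 and 6. It was also lost after GC and length correction (-0.05, adjusted p = 0.581) and with the GC slope as covariate (0.02, adjusted p = 0.93). ATP5F1D, the delta subunit of the central stalk, was called higher (0.54 ± 0.11, adjusted p = 2.63e-04). Its transcript has 63.9% GC, and the value was 0.09 after correction (adjusted p = 0.271). ATP5F1E, the epsilon subunit, was at 0.07 ± 0.08 (adjusted p = 0.468), and at 0.39 after correction (adjusted p = 5.98e-05).

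The c ring is the rotor that protons turn, and 3 genes encode the same mature c subunit with different import signals. ATP5MC3 (chromosome 2, 175176258 to 175184607) had 211, 226 and 247 CPM with miR-122-5p and 111, 133 and 158 CPM with the control mimic (0.76 ± 0.08, adjusted p = 4.03e-08). ATP5MC2 (chromosome 12, 53632726 to 53677408) had 139.6, 155 and 164 CPM with miR-122-5p against 74.9, 104 and 129 CPM with the control mimic (0.56 ± 0.09, adjusted p = 3.22e-05). ATP5MC1 (chromosome 17, 48892765 to 48895871) had 86.4, 97.0 and 117 CPM with miR-122-5p against 62.9, 66.0 and 85.7 CPM with the control mimic (0.51 ± 0.09, adjusted p = 4.81e-05). None of the 3 overlapped between groups. With the GC slope as covariate ATP5MC3 was at 0.49 and ATP5MC1 at 0.50, both still called, and ATP5MC2 at 0.17 (adjusted p = 0.394). As a share of the counts of the 3 genes together, ATP5MC3 made up 46.8 to 48.3% with miR-122-5p and 40.9 to 45.6% with the control mimic, again with no overlap. ATP5MC1 made up a median of 20.6% in miR-122-5p libraries and 21.3% in control libraries, and ATP5MC2 31.9% in miR-122-5p libraries and 34.5% in control libraries, both with overlapping groups.

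The small membrane subunits sit around the ring and help the enzyme form dimers. ATP5ME (chromosome 4, 672436 to 674338) had only 7.58, 8.58 and 11.3 CPM with miR-122-5p and 2.71, 3.76 and 4.31 CPM with the control mimic, yet the groups were apart (1.28 ± 0.14, adjusted p = 1.43e-07). MYL5 and other genes overlap 61.6% of its exon bases, so its value is uncertain. ATP5MD (chromosome 10, 103389041 to 103396492) had 96.4, 105 and 121 CPM with miR-122-5p against 67.8, 73.6 and 88.8 CPM with the control mimic (0.49 ± 0.08, adjusted p = 1.71e-05), also apart. ATP5MF (chromosome 7, 99448475 to 99466331) had 44.6, 49.8 and 65.8 CPM with miR-122-5p and 13.2, 28.7 and 35.1 CPM with the control mimic (0.94 ± 0.15, adjusted p = 2.91e-05). Control library 1 held its lowest value, and the covariate ended its call (0.39, adjusted p = 0.354). ATP5MG changed by 0.55 ± 0.10 (adjusted p = 1.25e-04), or 0.86 after GC and length correction, and ATP5MPL by 0.33 ± 0.08 (adjusted p = 0.00156).

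The peripheral stalk keeps the head from turning with the ring. ATP5PB rose by 0.29 ± 0.07 (adjusted p = 0.00127), or 0.51 after GC and length correction. ATP5PF rose by 0.23 ± 0.07 (adjusted p = 0.014) and was not called after correction (0.11, adjusted p = 0.183) or with the covariate (0.26, adjusted p = 0.169). ATP5PD rose by 0.20 ± 0.07 (adjusted p = 0.0253), a call lost without miR-122-5p library 1 or 2 or control library 4. ATP5PO was at 0.06 ± 0.14 (adjusted p = 0.76); control library 1 had 33.7 CPM and the next control 19.4 CPM, and without that library the gene was called higher (0.26, adjusted p = 0.013). ATP5IF1, the inhibitor that stops the enzyme from running backwards (chromosome 1, 28236109 to 28246906), had 24.9, 30.9 and 39.04 CPM with miR-122-5p and 20.1, 22.1 and 26.8 CPM with the control mimic. The groups overlapped slightly (0.48 ± 0.10, adjusted p = 2.81e-04), and the covariate ended the call (0.26, adjusted p = 0.347). ATP5S, a coupling factor at 3.18 to 4.16 CPM with miR-122-5p and 3.15 to 6.05 CPM with the control mimic, was at -0.26 ± 0.17 (adjusted p = 0.2). ATP5MGL and the readthrough ATP5MF-PTCD1 reached at most 6 and 4 counts in any library. Of 4 tested assembly genes of the synthase, TMEM70, which helps the c ring form, was lower (-0.31 ± 0.07, adjusted p = 6.44e-04; -0.11 and adjusted p = 0.129 after correction), ATPAF2, a chaperone of the alpha subunit, was higher (0.34 ± 0.10, adjusted p = 0.00713; adjusted p = 0.527 with the covariate), and ATPAF1, the chaperone of the beta subunit, was at 0.16 ± 0.16 (adjusted p = 0.417).

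**Figure D3:**
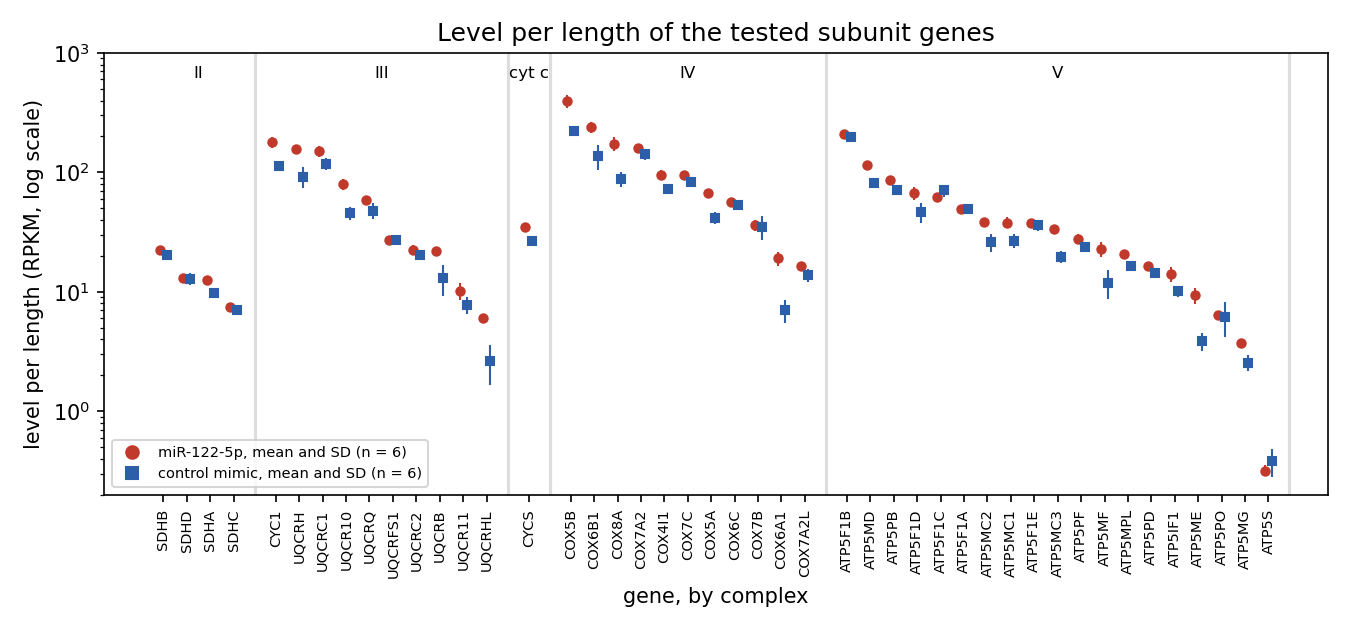
Level per length (RPKM, the CPM divided by the exon length in kilobases, log axis) of the 45 tested subunit genes, grouped by complex along the x axis and ordered by level, as mean and SD of 6 miR-122-5p libraries (red circles) and 6 control libraries (blue squares). COX5B is highest in both groups, at 397 in miR-122-5p libraries and 221 in control libraries, and ATP5S lowest.

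Compared per kilobase of exon, levels within one complex were far from equal. COX5B was highest, at 397 ± 49.3 RPKM (CPM per kilobase) with miR-122-5p and 221 ± 10.7 RPKM with the control mimic (SD, n = 6). COX6A1, whose product also enters the enzyme, stood at 19.0 ± 2.55 in miR-122-5p libraries and 7.06 ± 1.54 in control libraries. The catalytic ATP5F1B was at 211 ± 12.1 in miR-122-5p libraries and 197 ± 7.93 in control libraries, and ATP5ME at 9.34 ± 1.39 in miR-122-5p libraries and 3.85 ± 0.681 in control libraries. In complex II, SDHB was at 22.4 ± 1.49 in miR-122-5p libraries and 20.2 ± 1.82 in control libraries. SDHD was at 13.1 ± 1.02 in miR-122-5p libraries and 12.8 ± 1.44 in control libraries. SDHA was at 12.6 ± 0.747 in miR-122-5p libraries and 9.72 ± 0.410 in control libraries. All annotated exons of SDHA span 8383 bases and its longest transcript 3001. For SDHD these are 2838 and 1439 bases, so the order of SDHD and SDHA depends on which length is used. Lengths are those of all annotated exons together, so genes with long unused exons come out low. Counts of the 2 low examples are also uncertain. COX6A1 pseudogenes held 15.3% of the summed counts in miR-122-5p libraries and 30.6% in control libraries, and other genes overlap 61.6% of the ATP5ME exon bases. What part of the gaps comes from counting was not tested.

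The fold changes were then set against the GC trend of all genes. Over all tested genes the median log2 fold change climbed across 5 classes of nearly equal size by transcript GC content, at -0.30, -0.16, -0.02, 0.17 and 0.39. The members' medians in the same classes were 0.37 (8 genes), 0.12 (14), 0.49 (13), 0.83 (6) and 0.60 (4), each above the median of all genes in that class, and 8 of 8, 13 of 14, 13 of 13, 6 of 6 and 3 of 4 members lay above it. In the class of lowest GC (26.8 to 41.3%), 5 of the 8 members rose, against 6.49% of all genes there, and in the next 5 of 14 rose and 1 fell, against 11.9% rising. After GC and length correction 37 members were called higher and 0 lower, with a median of 0.47 (0.03 over all genes), and 28 of the 31 first called remained; ATP5F1D, ATP5PF and UQCRC1 were lost. With the GC slope as covariate 20 members were called higher and 0 lower (18 of them among the 31), with a median of 0.34, while 1117 genes of the whole table were then called higher and 1885 lower. The 18 called in all 3 fits were SDHA, CYC1, UQCR10, UQCRQ, CYCS, COX4I1, COX5A, COX5B, COX6A1, COX7A2L, COX8A, ATP5MC1, ATP5MC3, ATP5MD, ATP5ME, ATP5MG, ATP5MPL and ATP5PB. What part of the members' values goes with the GC trend cannot be told apart from the group.

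**Figure D4:**
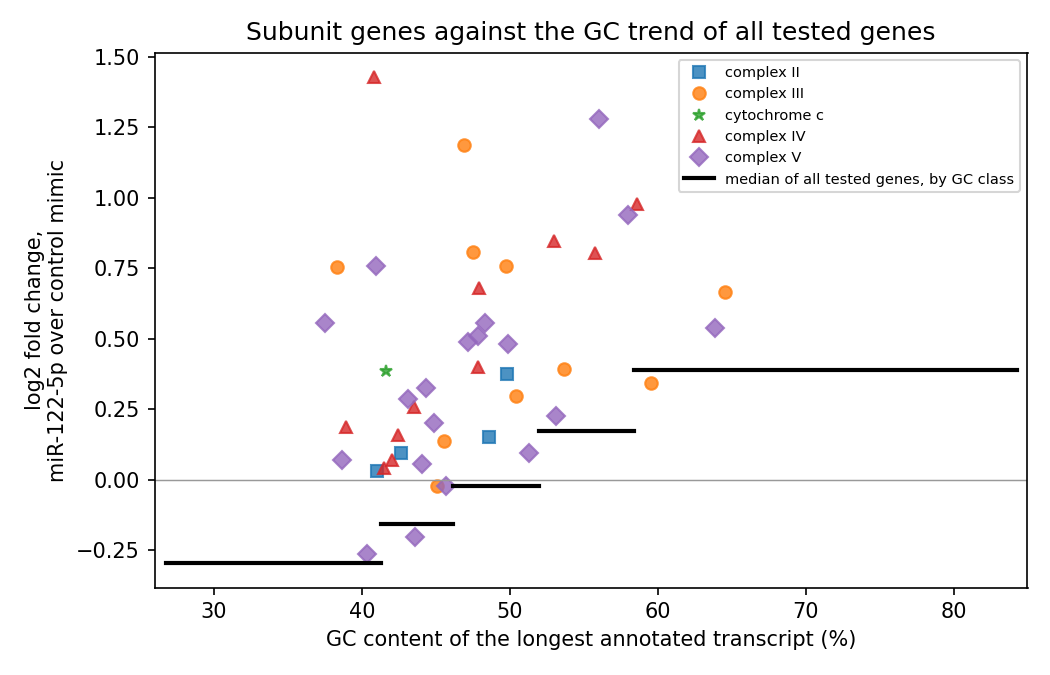
Log2 fold change (miR-122-5p over control mimic, y axis) against GC content of the longest annotated transcript (x axis, %) for the 45 tested subunit genes, one marker shape per complex; black bars are medians of all tested genes in each GC class. The bars climb from -0.30 to 0.39, and in the class of lowest GC all 8 members lie above the bar.

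The nuclear subunits were next set beside the other gene groups of the same pathway. The 36 tested nuclear subunits of complex I gave 21 higher (58.3%) and 4 lower (11.1%), with a median of 0.32. The members of complexes II to V had 68.9% higher and 2.22% lower, with a median of 0.38. Over all tested genes the shares were 24.3% higher and 26.2% lower. The difference between complex I and the members was not tested. Of the 6 mitochondrially encoded subunits of complexes III to V, 0 rose and 1 fell (16.7%) by edgeR, with a median of -0.13. In the higher direction, 1 passed at an unadjusted p under 0.05, 1 by limma-voom and 0 by DESeq2; in the lower direction these numbers were 3, 2 and 1. MT-CO1, the catalytic core of complex IV, had 6547, 6918 and 8309 CPM with miR-122-5p and 6841, 7967 and 8523 CPM with the control mimic (-0.15 ± 0.07, adjusted p = 0.0618), and was called lower without control library 1 (-0.19, adjusted p = 0.0107) or miR-122-5p library 6 (adjusted p = 0.0153). MT-CO3 had 3287, 3409 and 4127 CPM with miR-122-5p against 1769, 3098 and 3429 CPM with the control mimic (0.26 ± 0.11, adjusted p = 0.058), and was called higher without control library 2 (0.31, adjusted p = 0.0365) or 5 (0.31, adjusted p = 0.0353). MT-ATP8 was the one that fell (-1.45 ± 0.33, adjusted p = 7.87e-04), at only 0.807 to 1.69 CPM with miR-122-5p and 0.926 to 7.73 CPM with the control mimic, so it rests on few counts, and 22.2% of it overlaps MT-ATP6.

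Of 11 tested regulators of respiratory gene transcription, in the nucleus or in mitochondria, 4 rose and 2 fell, with a median of -0.01. The shares were 36.4% higher and 18.2% lower, beside 24.3% and 26.2% of all tested genes, and the difference was not tested. POLRMT, the mitochondrial RNA polymerase, had 82.3, 89.3 and 101 CPM with miR-122-5p and 47.8, 54.7 and 65.9 CPM with the control mimic (0.70 ± 0.09, adjusted p = 8.80e-07). ESRRA, a nuclear receptor that drives oxidative genes, had 64.6, 84.0 and 94.4 CPM with miR-122-5p against 33.4, 50.5 and 59.3 CPM with the control mimic (0.75 ± 0.11, adjusted p = 1.06e-05). Both transcripts are rich in GC (66.3% and 63.2%): after GC and length correction the values were 0.20 (adjusted p = 0.00633) and 0.35 (8.66e-05), and with the covariate neither was called (0.26, adjusted p = 0.0751, and 0.06, adjusted p = 0.759). PPARGC1B, a coactivator of ESRRA, had 17.9, 18.4 and 24.1 CPM with miR-122-5p and 12.7, 13.8 and 15.2 CPM with the control mimic (0.50 ± 0.09, adjusted p = 9.74e-05), and stayed called in both of those fits. PPARGC1A, the better known coactivator, reached at most 4 counts in any library. NRF1 was at -0.21 ± 0.10 (adjusted p = 0.0819) and TFAM, the mitochondrial transcription and packaging factor, at 0.11 ± 0.12 (adjusted p = 0.447), or 0.44 after correction (adjusted p = 0.00174). GABPA, the DNA-binding subunit of GABP, was called lower (-0.26 ± 0.10, adjusted p = 0.033), but the sign turned after GC and length correction (0.10, adjusted p = 0.233). That call was also lost without any 1 of miR-122-5p libraries 1 to 4 and control libraries 1, 5 and 6.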

How the data were processed

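The deposited table holds raw read counts of 58735 genes in 12 libraries, with no scaling by the authors. The build hg38, the aligner HISAT2 (2.0.5) and the counter featureCounts (1.5.0-p3) are listed in the submitters' processing notes; which annotation release was counted, and whether by strand, is not given in the sources used here. Counted without strand, reads of overlapping genes mix, and reads that fit several copies equally well are usually dropped. All 58735 identifiers were found in GENCODE 29, which gave symbols, coordinates, transcript GC content and 3′ UTRs; promoters and the microRNA came from RefSeq (GRCh38.p14). Columns named for miR-122 matched their sample titles; the other 6 columns carry no word of the control titles and were taken as the control libraries by their numbers.

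Genes were kept by filterByExpr (15471; 28537 rows had 0 counts throughout), scaled by TMM and compared with the quasi-likelihood test of edgeR 4.0.16 (R 4.3.3), adjusted after Benjamini and Hochberg, at 0.05. Log2 fold changes put miR-122-5p over control mimic and carry an SE (median 0.124 over all genes), and CPM are scaled by TMM. Log2 CPM used a prior count of 2, and trends were removed with natural splines of 4 degrees of freedom. Library measures were compared by exact permutation. The alternatives were DESeq2 1.42.0, limma-voom (limma 3.58.1), other scalings and filters, the replicate block, the GC corrections, pseudogene counts added to their parents, a threshold of 0.01 and each library left out. Counts were simulated for this comparison (15471 genes, 50 planted at each size). On them edgeR recovered 6% of log2 changes of 0.25, 50% of 0.5, 78% of 1 and 92% of 2 and made 0 false calls. The planted genes were a far smaller share than the 50.5% of tested genes called in the data. The simulated libraries also carried no slope with GC content or length, while in the data both slopes differed between the groups. Neither the recovery rates nor the 0 false calls therefore need hold for the real comparison. Pairs within a group had a chi-square of 7.84 to 72.9 per degree of freedom, beyond sampling noise, so none was a copy or mere resampling of another. That spread cannot tell separate cultures from separate preparations of one culture. The sample titles call the libraries of a group duplications.

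Members and gene lists were chosen with earlier results of these data known. Values per library are given for the 4 members of smallest p in each of complexes II to V, any member called lower, and CYCS, ATP5IF1, COX7A2L, COX4I1, COX4I2 and the c subunit genes. From each other list up to 3 genes of smallest p are named, with PPARGC1A, PPARGC1B, NRF1, GABPA, ESRRA, TFAM, NDUFA4, C15orf48 and HIGD1A. Other members are given in brief; UQCRFS1, UQCRB, ATP5F1A and the mitochondrially encoded genes are shown in more detail after their values were seen.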

Additional observations from a re-analysis of the deposited data

Results flagged for a closer look

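In 17 of 142 tests of 1 group of 6 libraries for 1 gene (71 genes), a library lay so far from the others that its gap to the nearest exceeded 0.625 of the group's range; chance alone flags about 1 in 20 such groups. Control library 1 accounted for 8 of the 17. It was lowest for UQCRB (59.57 CPM, next 125 CPM), COX7B (60.82, next 108.5), ATP5MF (13.19, next 26.27), MT-CO1 (6841, next 7870) and MT-CO3 (1769, next 2897), and highest for COX7A2 (334.2, next 275.3), ATP5PO (33.71, next 19.35) and TFAM (12.99, next 10.22). Library 1 of the miR-122-5p group was highest for ATP5F1E (225.9 CPM, next 194.6), ATP5ME (11.29, next 8.733) and ATP5PF (66.14, next 57.16). In miR-122-5p library 6, UQCRHL (11.27 CPM, next 13.03) and SDHAF4 (10.06, next 11.87) were lowest and MT-CO3 (4127, next 3533) highest. The other 3 were NDUFA4L2 in miR-122-5p library 4 (lowest, 4.091 CPM, next 5.514), MT-ATP8 in miR-122-5p library 2 (lowest, 0.8069, next 1.381) and SCO1 in control library 5 (highest, 15.42, next 11.22).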

How the results depend on the processing

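The 31 members called higher stayed between 30 and 34 when single libraries were left out (3446 to 3846 genes higher and 3727 to 4033 lower over the whole table), and were 31 by DESeq2, limma-voom, RLE factors and both other filters, 35 with library totals only, 27 at an adjusted p under 0.01 and 37 with GC and length offsets. With the GC slope covariate they were 20 (1117 genes higher and 1885 lower over the whole table). The 1 member called lower became 0 with library totals only, no low-count filter, either GC correction, control libraries 1 and 6 out, or the threshold of 0.01, and ranged from 0 to 1 with single libraries out. The replicate numbers did not pair the libraries (correlations of same-numbered deviations -0.105 to 0.066), and with the number as a block 31 members were called higher and 1 lower (3702 and 3885 over the whole table). The replicate block with the offsets gave 38 and 0, and with the covariate 11 and 0 (526 and 1276 over the whole table).

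Signs turned as follows, whether or not a value was called. With library totals only, UQCRFS1 was at 0.0201 and ATP5F1A at 0.0188. With the offsets, UQCRFS1 was at 0.146, ATP5F1A at 0.138, ATP5S at 0.0426, HIGD1A at 0.0284 and GABPA at 0.102, and with the replicate block added at 0.147, 0.139, 0.0622, 0.0431 and 0.104. With the covariate, UQCRFS1 was at 0.00085, COX7B at -0.171, ATP5F1A at 0.157, ATP5F1C at 0.0225, ATP5F1D at -0.0367, ATP5S at 0.305, NDUFA4L2 at -0.0232, C15orf48 at 0.221, HIGD1A at 0.311, GABPA at 0.252 and MT-CO3 at -5.88e-05. With covariate and replicate block, SDHB was at -0.0619, UQCRB at -0.0714, COX6B1 at -0.0377, COX7B at -0.577, ATP5F1A at 0.151, ATP5F1D at -0.0101, ATP5MC2 at -0.012, ATP5MF at -0.156, ATP5S at 0.567, NDUFA4L2 at -0.422, C15orf48 at 0.779, HIGD1A at 0.268, GABPA at 0.237, ESRRA at -0.00119 and MT-CO3 at -0.29. Without control libraries 1 and 6, COX7B was at -0.0745 and ATP5F1A at 0.0273, and with pseudogene counts added UQCRFS1 was at 0.016. Leaving out single libraries took 5 members not called with all libraries across 0: SDHD ranged from -0.00645 to 0.0747, UQCRFS1 from -0.0382 to 0.00727, COX7B from -0.0733 to 0.113, ATP5F1A from -0.0336 to 0.0308 and ATP5PO from -0.000147 to 0.259. The cause was not tested. Over the members' values under all alternatives, 1100 kept direction and side of the threshold, 53 (in 23 members) lost their call with no change of sign, 29 (in 9) gained one with no change of sign and 33 (in 13) turned sign. Called higher under every setting were 9: ATP5MC1, ATP5MD, ATP5ME, ATP5MG, COX4I1, COX5B, COX8A, CYC1 and UQCRQ. The SE of each gene limits what could be called. Among the members not called it ran from 0.06 (ATP5F1B) to 0.17 (ATP5S), beside a median of 0.124 over all genes. COX7C was called at 0.19, so no single size marks the limit. A member that was not called cannot be read as unmoved.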
